A study of Homo sapiens with 15 samples.

Results

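The genes described here are 10 genes of prostanoid metabolism and signalling: the cyclooxygenases PTGS1 and PTGS2, the terminal synthases PTGES, PTGES2, PTGDS and PTGIS, the degrading enzyme HPGD, and the receptors PTGER2, PTGER4 and PTGFR. They were chosen by name as prostanoid enzymes and receptors and found by Ensembl identifier in a count table of 57736 genes. All 10 have a row in the table, and 9 passed the filter on low counts, which 15994 genes passed in all; HPGD did not. RNA was sequenced from IMR90, a cell line established from the lung fibroblasts of a human fetus, to follow senescent cells in which TXNRD1, the cytosolic thioredoxin reductase, was inhibited. The 15 libraries form 5 groups of 3. Senescent TRi-1 cells received TRi-1, a small-molecule inhibitor of the TXNRD1 protein, and senescent DMSO cells its vehicle. Senescent shTXNRD1 cells carried a short hairpin against the TXNRD1 transcript, and they were set against senescent control cells. Senescent control cells were in turn set against growing control cells. How the cells were made senescent, how much TRi-1 they received and for how long, what the hairpin control was, and whether replicates were separate cultures is not stated in the labels. P-values thus cover only the spread between these libraries, which may be technical, and each way of inhibition is represented by a single hairpin condition and a single compound.

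Prostanoids are lipid signals made from arachidonic acid, which phospholipases release from membranes. The cyclooxygenases turn it into prostaglandin H, PTGS1 as the enzyme most tissues hold at a steady level and PTGS2 as the one that inflammatory signals induce. Terminal synthases then make prostaglandin E, D or I (prostacyclin), each of which acts on its own receptors at the cell surface, and HPGD inactivates the prostaglandins that are taken back up. In fibroblasts, prostaglandin E is the prostanoid most often described, and its receptors PTGER2 and PTGER4 raise cyclic AMP, while PTGFR, the receptor for prostaglandin F, raises intracellular calcium.

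PTGS2 had the largest fitted change of the 10 genes with senescence and PTGS1 the largest with TRi-1, so their promoters are shown first. The RefSeq table of promoters (GRCh38.p14) held 9 of the 10 genes, in 13 windows; PTGIS was the one without an entry. Each line below gives the 250 bases before a transcription start in the direction of the gene. The PTGS2 window is chr1:186680424-186680673 on the minus strand, and the windows of the 2 PTGS1 starts are chr9:122370283-122370532 and chr9:122375052-122375301 on the plus strand.
PTGS2: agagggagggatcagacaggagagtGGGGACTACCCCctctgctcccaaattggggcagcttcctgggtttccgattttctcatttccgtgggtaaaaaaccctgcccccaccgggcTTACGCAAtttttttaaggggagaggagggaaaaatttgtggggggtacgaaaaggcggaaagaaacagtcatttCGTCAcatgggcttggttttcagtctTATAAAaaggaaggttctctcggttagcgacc
PTGS1, upstream start: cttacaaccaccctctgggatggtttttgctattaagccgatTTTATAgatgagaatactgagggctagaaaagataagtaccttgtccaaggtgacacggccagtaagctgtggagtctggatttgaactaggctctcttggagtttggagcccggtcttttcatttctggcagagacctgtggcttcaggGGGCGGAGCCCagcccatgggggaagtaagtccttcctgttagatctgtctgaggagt
PTGS1, downstream start: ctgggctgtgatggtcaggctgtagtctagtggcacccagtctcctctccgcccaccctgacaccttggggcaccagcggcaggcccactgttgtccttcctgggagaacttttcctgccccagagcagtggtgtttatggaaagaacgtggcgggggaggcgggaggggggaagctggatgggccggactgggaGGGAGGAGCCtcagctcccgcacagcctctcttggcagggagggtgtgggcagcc

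Capitals mark exact matches on either strand to the TATA box (TATAAA), the core of the cyclic AMP response element (TGACG), the AP-1 motif (TGANTCA), a loose NF-kB motif (GGG, any 5 bases, CC) and a C/EBP motif (TTGCNNAA). In PTGS2 the TATA box lay at bases -32 to -27 from the start, the core of the cyclic AMP element on the opposite strand at -58 to -54, the C/EBP match on the opposite strand at -133 to -126 and overlapping loose NF-kB matches at -225 to -214. Of 34943 promoter windows of the same length, 10.8% held a TATA box, 21.2% that core, 9.06% the C/EBP motif and 54.4% the loose NF-kB motif, so that last match is common. The upstream PTGS1 window held TATAAA on the opposite strand at -208 to -203 and a loose NF-kB match at -58 to -48. The downstream one held a loose NF-kB match at -55 to -46 and no TATA box. AP-1 letters, found in 6.59% of windows, were in none of these 3 windows, and a stricter NF-kB motif (GGGA, any base, TTTCC; 0.527% of windows) was in none either. The letters TGACNNNGC, the core of the antioxidant response element and present in 10.9% of windows, stood in the upstream PTGS1 window at -157 to -149 but not in the PTGS2 window. These matches describe letters and are no measure of binding.

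Library totals ran from 18033076 to 28909046 counts. TXNRD1, the targeted gene, had 21.0, 21.6 and 25.3 CPM (its count scaled to the library total) in the shTXNRD1 libraries, against 506, 511 and 528 CPM in the senescent control libraries. With TRi-1 it had 430, 420 and 443 CPM, against 430, 399 and 395 CPM with DMSO; these groups overlapped. Levels throughout are CPM scaled by the TMM method. Changes are log2 fold changes from edgeR's quasi-likelihood test, called at a Benjamini-Hochberg adjusted p under 0.05. The test itself gives no SE. Each SE was worked back as the size of the change over the square root of its F statistic. It is therefore approximate, and may be too small where a large change rests on few counts. All 10 fibroblast markers were detected and summed to 11581 to 12334 CPM with TRi-1, against 15426 to 17975 CPM with DMSO. With shTXNRD1 they summed to 12085 to 15580 CPM, against 16883 to 19501 CPM in senescent control and 16530 to 21807 CPM in growing libraries. The sum was thus lower without overlap under both ways of inhibition, but its members did not all fall. With shTXNRD1, 2 were called higher and 7 lower (1 not called), beside 25.8% and 24.8% of all genes. DCN, for example, averaged 1013 CPM with shTXNRD1 and 557 CPM in senescent control. With TRi-1, 1 was called higher and 7 lower (2 not called), beside 7.64% and 12.2% of all genes. The 5 endothelial markers found in the table summed to 51.6 to 55.0 CPM with TRi-1 and 85.3 to 91.0 CPM with DMSO, and to 105 to 133 CPM with shTXNRD1, 159 to 172 CPM in senescent control and 109 to 134 CPM in growing libraries. Nearly all of that was TEK, which averaged 161 CPM in senescent control. The 6 epithelial markers summed to 45.7 to 82.8 CPM. The 6 leukocyte markers, of which CD3E was at 0 in all libraries, summed to 19.1 to 38.8 CPM with shTXNRD1, 72.2 to 80.5 CPM in senescent control and 15.6 to 26.0 CPM in growing libraries. With TRi-1 they summed to 91.4 to 93.2 CPM, against 56.6 to 73.8 CPM with DMSO. This sum was nearly all CD68, which averaged 75.2 CPM in senescent control, while PTPRC, ITGAM, CD14 and LYZ averaged under 1 CPM in every group. The 5 platelet markers, of which GP9 was at 0 throughout, summed to at most 2.68 CPM. The part of these markers in the results was not tested, and in bulk RNA fewer cells of a type and less RNA per cell cannot be told apart.

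**Figure D1:**
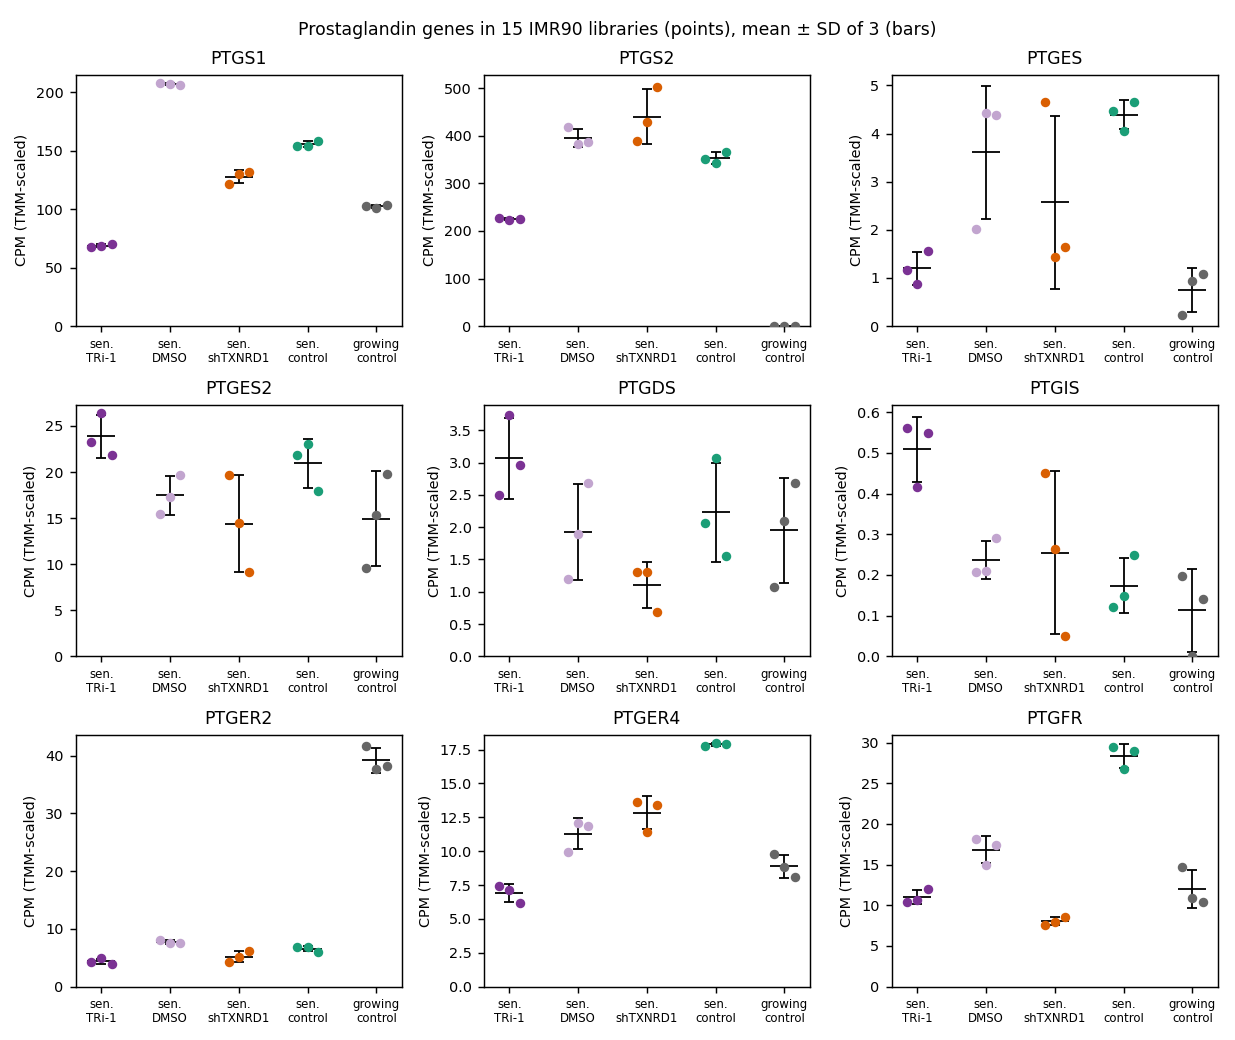
TMM-scaled CPM (y axes from 0, with a scale of its own for each gene) of the 9 genes that passed the filter, in 5 groups of 3 libraries; points are libraries, and bars are the mean and SD of 3. PTGS2 was above 200 CPM in every senescent library and at 0.611 to 0.793 CPM in the growing libraries, whereas PTGER2 was highest in the growing libraries, at 37.7 to 41.7 CPM.

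Senescent control cells were compared with growing control cells for what differed with senescence. PTGS2 was 478-fold higher in senescent cells, and PTGS1, PTGES, PTGER4 and PTGFR also rose, by 1.52-fold to 5.87-fold. PTGER2 fell 5.97-fold. In counts, 5 of the 9 genes tested were called higher, beside 27.4% of all genes tested, and 1 was called lower, beside 29.5% (56.9% of all genes in either direction). Their median log2 fold change was 0.60, against 0.03 for all genes tested. PTGES2, PTGDS and PTGIS were not called.

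With the TXNRD1 hairpin, PTGFR fell 3.53-fold, PTGS1, PTGER4, PTGER2 and PTGDS fell by less, and PTGS2 rose 1.25-fold. Thus 1 gene was called higher, beside 25.8% of all genes, and 5 were called lower, beside 24.8% (50.7% in either direction); the median log2 fold change was -0.48, against -0.01 for all genes. The 5 became 3, without PTGER2 and PTGDS, when senescent control replicate 1 or 2 or shTXNRD1 replicate 2 was left out. The same held with upper-quartile scaling, without the filter and with the compared groups alone. Without shTXNRD1 replicate 1, PTGER2 and PTGDS also lost their calls, while PTGES and PTGES2 were called lower. With TRi-1, PTGS1 fell 3.01-fold, PTGES 2.99-fold and PTGS2 1.76-fold, and all 3 receptors were lower. By edgeR 0 of the 9 genes were called higher, beside 7.64% of all genes (0 also at an unadjusted p under 0.05, by DESeq2 and by limma-voom), and 6 were called lower, beside 12.2% (19.9% in either direction); the median was -0.71, against 0.01 for all genes. DMSO cells also differed from senescent control cells: 1 gene, PTGS1, was called higher, beside 8.36%, and 2, PTGER4 and PTGFR, lower, beside 7.87% (16.2% in either direction). What else differed between these groups is not stated, so the vehicle and any such difference cannot be told apart. PTGER2 was higher in all DMSO libraries than in the senescent control libraries without passing the test (0.24 ± 0.12, adjusted p = 0.208, edgeR), and PTGS2, PTGES (-0.27 ± 0.45, 0.771), PTGES2 (-0.26 ± 0.27, 0.597), PTGDS (-0.19 ± 0.37, 0.812) and PTGIS (0.49 ± 0.69, 0.726) were not called either. The hairpin comparison shares its senescent control libraries with the senescence and the DMSO comparisons, and the DMSO comparison shares the DMSO libraries with the TRi-1 comparison.

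**Figure D2:**
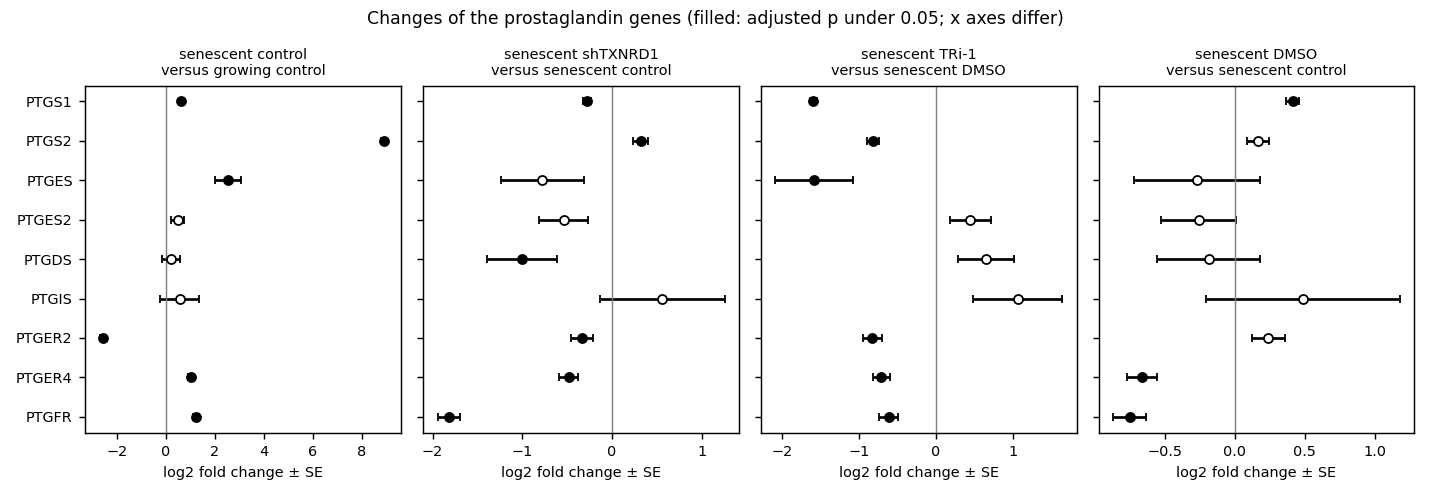
Log2 fold changes ± SE (x axes differ) of the 9 tested genes in 4 comparisons, each named at the top of its panel; filled circles were called at an adjusted p under 0.05 by edgeR. PTGS2 stands at 8.90 in the senescence panel, and the called genes of the TRi-1 panel all lie left of 0, between -1.59 and -0.61.

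PTGS2 (ENSG00000073756), the inducible cyclooxygenase, had 352, 342 and 367 CPM in the senescent control libraries, against 0.793, 0.781 and 0.611 CPM in the growing libraries, where it rested on 20, 19 and 13 counts. Every senescent library was more than 100 times above every growing one. The means were 354 ± 12.5 CPM in senescent and 0.728 ± 0.102 CPM in growing cells (SD, n = 3 each), a log2 fold change of 8.90 ± 0.13 (adjusted p = 9.61e-16, edgeR). The shTXNRD1 libraries had 389, 429 and 504 CPM, all above the 3 senescent control libraries. Their mean of 441 ± 58.4 CPM gave a log2 fold change of 0.32 ± 0.08 (adjusted p = 0.00403, edgeR). With TRi-1 the level was 227, 224 and 226 CPM, against 418, 382 and 387 CPM with DMSO. The 3 TRi-1 libraries lay within a few CPM of one another and below all DMSO libraries, with a log2 fold change of -0.81 ± 0.08 (adjusted p = 8.51e-06, edgeR). DMSO libraries lay above the senescent control libraries, with a log2 difference of 0.16 ± 0.08 that was not called (adjusted p = 0.196, edgeR). PTGS2 was called with a correction for GC content too, where the hairpin change was 0.13.

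PTGS1 (ENSG00000095303), the steady cyclooxygenase, moved less with senescence and more with the inhibitor. It had 154, 154 and 159 CPM in the senescent control libraries, against 103, 101 and 104 CPM in the growing libraries. The groups did not overlap, and the log2 fold change was 0.60 ± 0.05 (adjusted p = 4.97e-08, edgeR). The shTXNRD1 libraries had 122, 130 and 132 CPM, all below the senescent control libraries and above the growing ones, a log2 fold change of -0.28 ± 0.05 against senescent control (adjusted p = 0.000133, edgeR). With TRi-1 the libraries had 67.9, 68.6 and 70.2 CPM, against 208, 207 and 206 CPM with DMSO. This was the largest fall of PTGS1 among the comparisons, with a log2 fold change of -1.59 ± 0.05 (adjusted p = 4.71e-11, edgeR), and it left PTGS1 below the growing libraries. DMSO against senescent control ran the other way: DMSO libraries lay above senescent control libraries by 0.41 ± 0.05 on the log2 scale (adjusted p = 3.47e-05, edgeR). From high to low, the group means of PTGS1 ran DMSO, senescent control, shTXNRD1, growing control and TRi-1, and no neighbours in that order overlapped.

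Per kilobase of the longest transcript, the balance of the cyclooxygenases changed with senescence. The level of PTGS2 was 78.3 CPM per kilobase in senescent control and 0.161 in growing cells, and that of PTGS1 was 30.9 in senescent control and 20.3 in growing cells. The ratio of PTGS2 to PTGS1 was therefore 2.54 ± 0.051 in senescent control and 0.008 ± 0.0012 in growing cells (SD, n = 3 each). With shTXNRD1 the ratio was 3.84 ± 0.376, above senescent control. With TRi-1 it was 3.65 ± 0.0712, against 2.13 ± 0.0966 with DMSO, so that both ways of inhibition went with a higher ratio although PTGS2 was higher with one and lower with the other. By the mean transcript length the ratio was 1.99 with shTXNRD1 and 1.32 in senescent control, and 1.89 with TRi-1 and 1.11 with DMSO; the other length scales every group alike. These ratios were not tested.

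Among the terminal synthases, only PTGES was called with senescence. PTGES (ENSG00000148344), the inducible microsomal prostaglandin E synthase, was a low transcript, at 4.46, 4.05 and 4.65 CPM in the senescent control libraries and 0.238, 0.945 and 1.08 CPM in the growing ones. These groups did not overlap, and the log2 fold change was 2.55 ± 0.53 (adjusted p = 0.00111, edgeR). The shTXNRD1 libraries split: replicate 1 had 4.65 CPM, and replicates 2 and 3 had 1.44 and 1.64 CPM, and the change of -0.78 ± 0.46 was not called (adjusted p = 0.185, edgeR). Without shTXNRD1 replicate 1 it was called, at -1.52 (adjusted p = 0.00937). With TRi-1 the libraries had 1.17, 0.878 and 1.56 CPM, against 2.02, 4.43 and 4.38 CPM with DMSO. TRi-1 libraries all lay below the DMSO libraries, with a log2 fold change of -1.58 ± 0.50 (adjusted p = 0.0435, edgeR). This call was lost without DMSO replicate 2 (adjusted p = 0.121) or 3 (0.127), and without TRi-1 replicate 1 (0.117), 2 (0.153) or 3 (0.0743). A term for replicate number (adjusted p = 0.0755) and dropping the filter on low counts (0.128) ended it as well.

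PTGES2 (ENSG00000148334), a membrane-associated prostaglandin E synthase, was not called in any of the 4 comparisons between groups. Its libraries spread widely: 19.6, 14.4 and 9.12 CPM with shTXNRD1, 21.8, 23 and 18 CPM in senescent control, and 9.56, 15.4 and 19.8 CPM in growing cells. With TRi-1 it had 23.3, 26.4 and 21.9 CPM, and with DMSO 15.4, 17.3 and 19.7 CPM. The TRi-1 libraries were thus all above the DMSO libraries, by 0.45 ± 0.27 on the log2 scale, without passing the test (adjusted p = 0.275, edgeR); fitted on these 2 groups alone, the change of 0.43 was called (adjusted p = 0.0155). The change with senescence was 0.49 ± 0.27 (adjusted p = 0.135, edgeR), called without growing replicate 3 at 0.75 (0.0391). That with the hairpin was -0.54 ± 0.27 (adjusted p = 0.115, edgeR), called without shTXNRD1 replicate 1 at -0.84 (0.0227). With a correction for GC content these changes were -0.11 with senescence and 0.06 with the hairpin, neither called, at adjusted p values of 0.246 and 0.581. That correction also takes out differences between groups that follow transcript GC, not only those within a group.

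The spread of PTGES2 moved with a GC trend of the libraries. Its longest transcript has 65.7% GC, the highest of the 10 genes, and PTGDS follows with 63.6%, while PTGS2 has 36.9% and PTGFR 37.0%. Within a group, libraries differed in how counts depended on transcript GC: the slope was -0.27 log2 per 10% GC in growing replicate 1 and shTXNRD1 replicate 3 and -0.14 in DMSO replicate 1, against 0.25 in shTXNRD1 replicate 1. On the log2 scale PTGES2 deviated from its group mean by -0.59 in shTXNRD1 replicate 3 and by -0.57 in growing replicate 1, and by 0.51 in shTXNRD1 replicate 1. PTGS2, whose transcript is AT-rich, had its highest level in that same shTXNRD1 replicate 3. PTGES, at 56.6% GC and low counts, deviated further in some of these libraries. Its deviation was -1.14 in growing replicate 1, -0.72 in DMSO replicate 1 and 1.02 in shTXNRD1 replicate 1. In shTXNRD1 replicate 3 it was -0.43, and in shTXNRD1 replicate 2, at a slope of 0.02, it was -0.60. The part of GC in the split of PTGES was not tested.

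**Figure D3:**
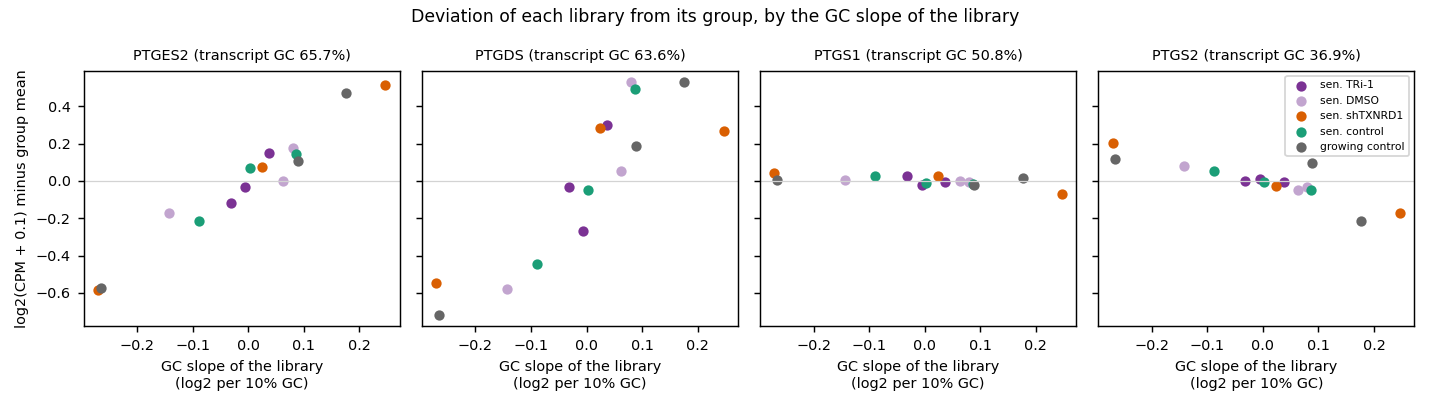
Deviation of each of the 15 libraries from the mean of its group, as log2(CPM + 0.1), against the slope of that library's counts on transcript GC (log2 per 10% GC, relative to its group), for PTGES2, PTGDS, PTGS1 and PTGS2. For PTGES2 the points run from -0.59 at a slope of -0.27 to 0.51 at a slope of 0.25; the panels share 1 vertical scale.

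PTGDS (ENSG00000107317), a prostaglandin D synthase, was low throughout. It had 1.3, 1.31 and 0.694 CPM with shTXNRD1, against 2.07, 3.06 and 1.55 CPM in senescent control, a log2 fold change of -1.0 ± 0.39 (adjusted p = 0.0459, edgeR). These groups did not overlap, but the call was lost in 10 of 16 alternatives, with adjusted p values of 0.0549 to 0.194. Leaving out each of 5 libraries in turn ended it: senescent control replicate 1 (adjusted p = 0.0751) or 2 (0.194), or shTXNRD1 replicate 1 (0.0549), 2 (0.065) or 3 (0.16). With a correction for GC content the change was -0.48 (adjusted p = 0.0944). With TRi-1 PTGDS had 2.49, 3.74 and 2.96 CPM, against 1.19, 1.9 and 2.68 CPM with DMSO, an uncalled change of 0.65 ± 0.36 (adjusted p = 0.234, edgeR). The change of senescent control against growing cells was not called either (0.20 ± 0.37, adjusted p = 0.658, edgeR). In the GENCODE annotation, 23.4% of its exon bases are shared with AL807752.7, a gene on the same strand that is not in the table, so its counts are uncertain.

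PTGIS (ENSG00000124212), the prostacyclin synthase, rested on 33 counts over the 3 TRi-1 libraries, 16 with DMSO, 16 with shTXNRD1, 11 in senescent control and 8 in growing cells. Its highest level was 0.56 CPM, in TRi-1 replicate 1, and it was not called in any comparison, with changes of 0.57 ± 0.79 with senescence (adjusted p = 0.557, edgeR) and 0.56 ± 0.69 with the hairpin (0.53). The TRi-1 libraries, at 0.56, 0.416 and 0.549 CPM, were above those with DMSO, at 0.207, 0.211 and 0.29 CPM, by 1.06 ± 0.58 on the log2 scale (adjusted p = 0.228, edgeR). HPGD (ENSG00000164120), the enzyme that inactivates prostaglandins, had 0 counts in all 15 libraries. A count of 0 allows up to 3 counts, which is 0.109 to 0.158 TMM-scaled CPM at these depths.

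The receptors for prostaglandin E moved in opposite directions with senescence. PTGER2 (ENSG00000125384) had 6.81, 6.87 and 6.0 CPM in the senescent control libraries, against 41.7, 37.7 and 38.2 CPM in the growing ones. All senescent libraries lay far below all growing libraries, with a log2 fold change of -2.58 ± 0.12 (adjusted p = 1.7e-10, edgeR). PTGER4 (ENSG00000171522) had 17.8, 18 and 17.9 CPM in senescent control, against 9.76, 8.80 and 8.08 CPM in growing cells. It was 2.01-fold higher in senescent cells without overlap (log2 fold change 1.01 ± 0.11, adjusted p = 1.8e-06, edgeR).

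Both were lower with TRi-1. PTGER2 had 4.23, 4.90 and 3.97 CPM with TRi-1, against 8.14, 7.54 and 7.57 CPM with DMSO (log2 fold change -0.83 ± 0.12, adjusted p = 0.00032, edgeR). PTGER4 had 7.43, 7.16 and 6.17 CPM with TRi-1, against 9.95, 12.1 and 11.8 CPM with DMSO (-0.71 ± 0.11, adjusted p = 0.000469, edgeR). In neither gene did the TRi-1 and DMSO libraries overlap. With the hairpin PTGER4 fell too, to 13.6, 11.4 and 13.4 CPM, all below senescent control (-0.48 ± 0.11, adjusted p = 0.00164, edgeR). PTGER2 had 4.30, 5.12 and 6.15 CPM with shTXNRD1, where replicate 3 lay within the range of the senescent control libraries, and a change of -0.34 ± 0.12 (adjusted p = 0.0316, edgeR). That call was lost in 9 of 17 alternatives (adjusted p values of 0.0529 to 0.146), among them without senescent control replicate 1 (0.0824) or 2 (0.0838), without shTXNRD1 replicate 1 (0.104) or 2 (0.0726), and with a term for replicate number (0.0529). PTGER4 was also lower in DMSO cells than in senescent control cells, with a log2 fold change of -0.66 ± 0.11 (adjusted p = 0.000724, edgeR).

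PTGFR (ENSG00000122420), the prostaglandin F receptor, showed the largest hairpin change of the 10 genes. It had 7.55, 7.96 and 8.57 CPM with shTXNRD1, against 29.4, 26.7 and 29 CPM in senescent control. The groups were far apart, with a log2 fold change of -1.82 ± 0.13 (adjusted p = 3.71e-08, edgeR). Growing libraries had 14.7, 10.9 and 10.4 CPM, so senescent control was 2.36-fold higher (log2 fold change 1.24 ± 0.12, adjusted p = 7.77e-07, edgeR) and the shTXNRD1 libraries lay below even the growing ones. With TRi-1 it had 10.4, 10.7 and 12.0 CPM, against 18.1, 14.9 and 17.4 CPM with DMSO, again without overlap (-0.61 ± 0.12, adjusted p = 0.00311, edgeR). DMSO libraries were themselves below senescent control, with a log2 fold change of -0.75 ± 0.12 (adjusted p = 0.000684, edgeR).

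The order of the groups differed between genes. PTGS2 ran shTXNRD1, DMSO, senescent control, TRi-1 and growing from high to low, and only shTXNRD1 and DMSO overlapped. PTGER2 ran growing, DMSO, senescent control, shTXNRD1 and TRi-1. Its shTXNRD1 libraries overlapped both the senescent control and the TRi-1 libraries. For PTGER4 the order was senescent control, shTXNRD1, DMSO, growing and TRi-1, with overlap between shTXNRD1 and DMSO. For PTGFR it was senescent control, DMSO, growing, TRi-1 and shTXNRD1, with overlap between growing and TRi-1. In PTGES, PTGES2, PTGDS and PTGIS every pair of neighbours in the order overlapped.

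The hairpin and the inhibitor effects were compared directly, as the change of shTXNRD1 against senescent control minus that of TRi-1 against DMSO. This difference was called for 5 of the 9 genes: 3 were more positive with the hairpin, beside 22.1% of all genes, and 2 more negative, beside 19.5% (41.7% in either direction). PTGS1 differed by 1.304 ± 0.06 (adjusted p = 4.2e-09, edgeR) and PTGS2 by 1.13 ± 0.11 (adjusted p = 3.37e-06, edgeR). PTGS1 fell under both, further with TRi-1, whereas PTGS2 rose under the hairpin and fell under TRi-1. PTGFR differed by -1.21 ± 0.17 (adjusted p = 8.79e-05, edgeR), since it fell further with the hairpin. For PTGDS the difference was -1.65 ± 0.53 (adjusted p = 0.023, edgeR) and for PTGER2 0.49 ± 0.17 (adjusted p = 0.0361, edgeR). The PTGDS difference did not pass when a library was left out in 4 cases: senescent control replicate 2 (adjusted p = 0.0698), shTXNRD1 replicate 3 (0.0572), DMSO replicate 1 (0.0511) or TRi-1 replicate 2 (0.0588). The PTGER2 difference was lost in 14 of 23 alternatives. Among them were leaving out the 3 libraries with the lowest GC slope relative to their group (0.32, adjusted p = 0.142) and a term for replicate number (0.0583). Leaving out senescent control replicate 3 (adjusted p = 0.0832), shTXNRD1 replicate 2 (0.0573) or 3 (0.0953), DMSO replicate 1 (0.0786), 2 (0.052) or 3 (0.0533), or TRi-1 replicate 1 (0.0753) or 3 (0.0917) also ended it. PTGER4 differed by 0.23 ± 0.15 (adjusted p = 0.248, edgeR), PTGES by 0.80 ± 0.68 (0.367), PTGES2 by -0.99 ± 0.38 (0.0534) and PTGIS by -0.50 ± 0.93 (0.693). For PTGES2 the difference was called without shTXNRD1 replicate 1 (-1.28, adjusted p = 0.0126), by DESeq2 (0.0166) and by limma-voom (0.0307), and was -0.13 with a GC correction (0.401). A difference that misses the threshold does not show that the effects are alike.

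**Figure D4:**
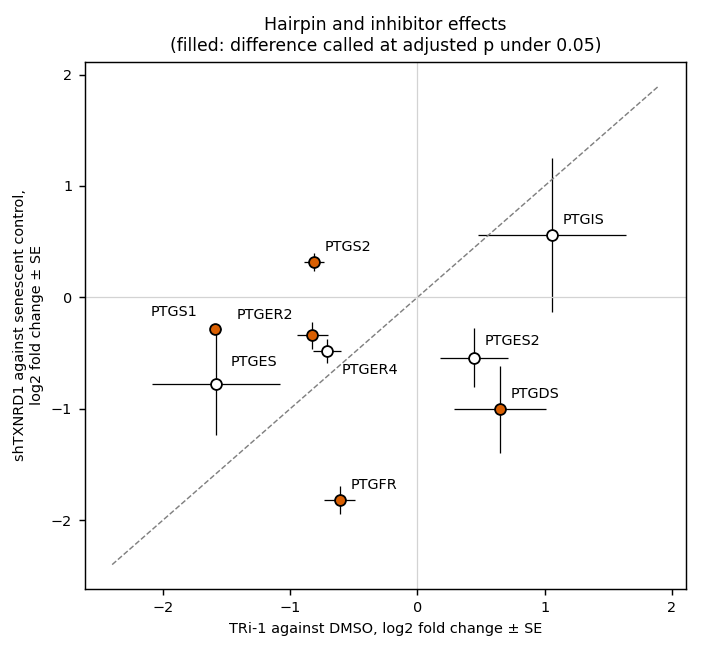
Log2 fold change ± SE of 9 prostaglandin genes with shTXNRD1 against senescent control (y) and with TRi-1 against DMSO (x); the dashed line marks equal change, and filled points are genes whose difference was called. PTGS1 (-1.59 with TRi-1, -0.28 with the hairpin) and PTGS2 (-0.81 and 0.32) lie above the line, and PTGFR (-0.61 and -1.82) below it.

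Other synthases outside the 10 genes were read from a list of 10, of which 9 were tested. In senescent control cells 3 were higher, 4 lower and 2 not called, with a median log2 fold change of -0.04. Beside this and the lists that follow, all genes tested were called higher and lower in 27.4% and 29.5% with senescence, 25.8% and 24.8% with shTXNRD1 and 7.64% and 12.2% with TRi-1. AKR1B1, an aldose reductase that also makes prostaglandin F, had 1766 ± 50.9 CPM in senescent control and 304 ± 17.2 CPM in growing cells (log2 fold change 2.54). TBXAS1, the thromboxane synthase, rose by 1.25 on the log2 scale and CBR1, a carbonyl reductase, fell by 0.78. With shTXNRD1, 5 were lower and 0 higher (4 not called, median -0.89; 1 was higher at an unadjusted p under 0.05): AKR1B1 averaged 880 ± 3.89 CPM with shTXNRD1, against 1766 ± 50.9 CPM in senescent control, and TBXAS1 12.7 ± 0.504 CPM against 51.4 ± 1.67 CPM (-2.02). With TRi-1, 1 was higher and 4 lower (4 not called, median -0.44). AKR1B1 was the one that rose, to 1611 ± 23.7 CPM with TRi-1, against 1243 ± 68.0 CPM with DMSO, and TBXAS1 fell by 0.71. AKR1C1, read as uncertain because AKR1C2 is nearly identical to it, had 9.27 ± 0.65 CPM with TRi-1 and 26.6 ± 0.768 CPM with DMSO (-1.52). In DMSO against senescent control cells 3 were lower and 0 higher (6 not called), beside 7.87% and 8.36% of all genes. AKR1B1 (-0.51, adjusted p = 3.28e-05, edgeR) and AKR1C1 (-0.60) were among those lower. AKR1B1 with TRi-1 thus rose from a lowered DMSO level and still averaged less than in senescent control. The AKR1B1 effects of the hairpin and of TRi-1 differed by -1.38 (adjusted p = 1.73e-08, edgeR) and those of TBXAS1 by -1.31 (5.79e-08).

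Of 7 other genes listed with the receptors, 4 were tested, all at low levels, and all 4 were higher in senescent control cells (median log2 fold change 2.35), beside 27.4% of all genes. The fourth, PTGFRN (1.78), encodes a regulator of the prostaglandin F receptor and is not itself a prostanoid receptor. PTGIR, the prostacyclin receptor, had 4.22 ± 0.888 CPM in senescent control and 0.554 ± 0.16 CPM in growing cells; PTGDR2, a prostaglandin D receptor, rose by 3.06 and TBXA2R, the thromboxane receptor, by 1.28 on the log2 scale. With shTXNRD1, PTGDR2 (-3.46) and PTGIR (-1.21) were lower and the other 2 were not called (median -0.75). With TRi-1 edgeR called 0 of the 4 (median -0.76), although 3 were lower at an unadjusted p under 0.05. Here limma-voom called 1, DESeq2 0, and edgeR 1 without TRi-1 replicate 2 or with a term for replicate number. With the compared groups alone and with the GC correction edgeR called 2. For transport and breakdown, all 7 genes were tested. In senescent control 4 were higher and 2 lower (median 0.39), with SLC22A3 (3.21) and SLCO3A1 (1.79), which encode transporters, rising, and PTGR1, a prostaglandin reductase, falling by 1.05. SLC22A3 rested on 12 counts over the 3 growing libraries and averaged only 1.61 CPM in senescent control. ABCC4, a pump that exports prostaglandin E, had 155 ± 15.1 CPM with shTXNRD1 and 388 ± 13.6 CPM in senescent control (-1.33), one of 3 genes lower (4 not called, median -0.27). With TRi-1, SLCO2A1, the prostaglandin transporter, fell by 1.03 and ABCC4 by 0.28, and 5 genes were not called (median -0.25); 1 call in place of 2 was made without DMSO replicate 1 or TRi-1 replicate 1 or 2.

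Arachidonic acid release and re-esterification was read from 17 genes, 13 of them tested. In senescent control 7 were higher and 2 lower (4 not called, median 0.88; 27.4% and 29.5% of all genes), with ACSL4 (1.66), which attaches arachidonic acid to coenzyme A, and the cytosolic phospholipases PLA2G4C (1.57) and PLA2G4A (1.31) among those that rose. With shTXNRD1 1 was higher and 3 lower (9 not called, median -0.12), the 3 being PLA2G4C (-0.97), ACSL4 (-0.82) and MGLL (-1.17), a lipase of monoacylglycerols. With TRi-1 PLA2G4A fell by 0.49 and 12 genes were not called (median -0.01); that call was lost without DMSO replicate 1 or 2 or TRi-1 replicate 1 or 2, which left 0. Of 9 lipoxygenase and leukotriene genes 4 were tested. ALOX5AP, the partner protein of 5-lipoxygenase, had 4.33 ± 0.379 CPM in senescent control and 5 counts over the 3 growing libraries; it rose with shTXNRD1 by 0.71 and fell with TRi-1 by 2.31, and these effects differed by 3.02 (adjusted p = 3.29e-05, edgeR). In this list 3 were higher with senescence (median 0.62), 2 were higher with shTXNRD1 (median 0.43) and 1 was lower with TRi-1 (median 0.06), the others not being called. Its called genes were 1 in place of 3 with senescence without growing replicate 2 or senescent control replicate 3, 1 in place of 2 with shTXNRD1 without senescent control replicate 1 or 2 or shTXNRD1 replicate 2, and 2 in place of 1 with TRi-1 without TRi-1 replicate 2. ALOX5 itself did not pass the filter.

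Of 14 cyclic AMP and CREB response genes, all tested, 9 were higher and 3 lower in senescent control (2 not called, median 1.22), beside 27.4% and 29.5% of all genes. NR4A2, an orphan nuclear receptor, had 26.3 ± 0.203 CPM in senescent control and 1.48 ± 0.15 CPM in growing cells. With shTXNRD1 it rose to 67.2 ± 4.37 CPM, and with TRi-1 it had 9.0 ± 0.203 CPM, against 16 ± 1.38 CPM with DMSO, so that like PTGS2 it was higher with one and lower with the other (difference 2.19, adjusted p = 4.34e-09, edgeR). NR4A2 was already lower in DMSO than in senescent control cells (-0.71, adjusted p = 2.77e-05, edgeR). Between those groups 1 of the 14 was higher and 3 lower (10 not called), beside 8.36% and 7.87% of all genes. In this list 5 were higher and 4 lower with shTXNRD1 (median 0.13; 25.8% and 24.8% of all genes), and 1 higher and 6 lower with TRi-1 (median -0.26; 7.64% and 12.2% of all genes), with RGS2, a regulator of G protein signalling, falling by 1.13. Without TRi-1 replicate 1, 4 calls in place of 7 were made with TRi-1. Among 10 factors that bind AU-rich mRNA, a class of elements PTGS2 mRNA is known to carry, 2 were higher and 6 lower with senescence (median -0.37). ZFP36L1 rose by 0.75 while ZFP36L2 (-1.41) and ZFP36 (-0.94) fell. With shTXNRD1 6 were higher and 2 lower (median 0.33; 25.8% and 24.8% of all genes). CELF1, an RNA-binding protein, rose by 0.51 (adjusted p = 2.28e-06, edgeR). ZFP36L1 had 78.7 ± 3.93 CPM with shTXNRD1 and 205 ± 8.66 CPM in senescent control (-1.38), and KHSRP, which promotes mRNA decay, fell by 1.01. With TRi-1 3 were higher and 2 lower (median 0.13), the changes of the named ones, CELF2, CELF1 and ELAVL1, being 0.24 to 0.53. CELF2 was the 1 factor called in DMSO against senescent control, where it was lower (-0.64, adjusted p = 0.00075, edgeR), beside 7.87% of all genes.

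Of 18 interleukin-1 and NF-kB genes, all tested, 13 were higher and 4 lower with senescence (median 0.90), beside 27.4% and 29.5% of all genes. IL1B had 2733 ± 133 CPM in senescent control and 10 counts over the 3 growing libraries, and IL1A 345 ± 14.7 CPM in senescent control and 4 counts in growing cells. With shTXNRD1, 4 were higher and 8 lower (median -0.40; 25.8% and 24.8% of all genes): IL1A fell by 1.49, IL1B by 0.92 and NFKBIA, the NF-kB inhibitor, by 0.64 on the log2 scale, whereas PTGS2 rose by 0.32. With TRi-1, 3 were higher and 5 lower (median -0.03; 7.64% and 12.2% of all genes), with IL1R1, the interleukin-1 receptor (-0.50), IL1A (-0.43) and IL1B (-0.28) among those that fell. These 8 calls were 5 without DMSO replicate 1 or TRi-1 replicate 1 and 4 without TRi-1 replicate 2. In DMSO against senescent control, 1 was higher and 5 lower (12 not called), beside 8.36% and 7.87% of all genes. Among those lower there were TNFAIP3 (-0.94), NFKB1 (-0.39) and IL1R1 (-0.28). The difference between the effects was called for NFKBIA (-0.85), NFKB1 (-0.73) and IL1R1 (0.81).

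The genes most like each prostaglandin gene were taken as those with the smallest root mean square difference in the 5 group means of log2(CPM + 0.5), after centring, among 12336 genes. For PTGS2 they were EHF (0.28), MMP1 (0.43), CSF3 (0.47), C3 (0.47) and CCL20 (0.55), where the values are log2 differences. EHF, an epithelial transcription factor, averaged 130 CPM with shTXNRD1, 88.2 with TRi-1, 99.1 with DMSO, 101 in senescent control and 0.0132 in growing cells, so it shared the high and the low group of PTGS2. MMP1 is a collagenase, CSF3 a cytokine of granulocytes, C3 a complement protein and CCL20 a chemokine. Of the nearest 2 genes to PTGS1, CASC15 (0.11) is given here. PTGER2 was nearest to SMAD9 (0.07) and ARHGAP20, PTGER4 to SLC7A2 (0.12) and ENTPD1, and PTGFR to PLXDC2 and RARRES2 (both 0.18). PTGES was nearest to CCN4 (0.14) and PDZRN3, PTGES2 to RELA (0.025) and SUPT5H, PTGDS to AGAP2-AS1 (0.047) and MAP2K3, and PTGIS to ITPK1 (0.038) and FBXO41. CSF3 and CCL20 had no count in the growing libraries, and EHF averaged 0.0132 CPM there. PTGS2 itself averaged only 0.728 CPM in growing cells, so all the distances to PTGS2, those of MMP1 and C3 included, depend on the added 0.5 CPM. The distances to PTGIS depend on it as well, since its group means ran from 0.113 CPM in growing cells to 0.508 CPM with TRi-1. All these pairings are likenesses over 5 group means only.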

How the data were processed

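The deposited counts are whole numbers per Ensembl gene and library, without scaling; the authors made them, per the submitters' processing notes, with tools that include RSEM 1.2.3 and DESeq2 (no version) on the builds hg19 and mm10, which are named without a role. No source used here states the aligner, the annotation, the strand, how reads shared by several genes were treated, or whether counts are rounded estimates. Paired-end libraries were made from total RNA, per the labels' protocols.

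Symbols were matched by identifier for 52300 of 57736 genes. Counts were scaled by TMM and tested with edgeR 4.0.16 (quasi-likelihood, R 4.3.3) in a single model of all 15 libraries in 5 groups, after filterByExpr. P-values are two-sided and adjusted over 15994 genes. With 3 against 3 an exact permutation test of a single gene cannot go below p = 0.1. Totals were 18033076 to 28909046 counts. The floor given for HPGD covers counting error only, while SDs also take in the spread between these libraries. So do the SEs, which are approximate because they were worked back from the F statistics. Replicate libraries differed by more than sampling noise, and none was a duplicate. The script was tested on simulated data. Transcript lengths and GC came from GENCODE, and promoters from RefSeq. DESeq2 1.42.0, limma-voom (limma 3.58.1), other scalings and filters, a replicate term and leaving out each library were the alternatives. A GC correction was chosen after seeing the data. So was leaving out the 3 libraries with the lowest GC slope relative to their group, the 3 low-GC libraries. The GC correction was fitted for each library against the mean of all 15 libraries, so it also takes out GC-linked differences between groups.

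The 10 genes, the lists, the marker lists and the tests were chosen with earlier results of these data known. The rule named all 10 genes in every comparison and up to 3 called genes with the smallest p in each list. Not every such list gene is printed, and 1 of the genes most like PTGS1 is not reported here.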

Additional observations from a re-analysis of the deposited data

Results flagged for a closer look

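The effects of the hairpin and of the inhibitor, each against its own control, differed by edgeR's interaction test for 5 prostaglandin genes, and these differences are given here as values only. PTGS1 differed by 1.304 and PTGS2 by 1.13 on the log2 scale, both less negative or more positive with the hairpin. PTGER2 differed by 0.49, and PTGFR and PTGDS by -1.21 and -1.65, more negative with the hairpin. The differences of PTGS1, PTGS2 and PTGFR passed the threshold in all 23 alternatives each, those of PTGDS in 18 of 22 and those of PTGER2 in 9 of 23.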

How the results depend on the processing

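No called result changed sign, but 14 values that were not called before or after did. On the log2 scale, with the GC correction PTGES2 was -0.11 with senescence and 0.059 with the hairpin, and PTGDS -0.31 with senescence. Without the 3 low-GC libraries PTGDS was -0.098 with senescence and 0.063 in DMSO against senescent control, PTGES 0.0054 in DMSO against senescent control and PTGIS 0.050 in the difference. Without single libraries the ranges were -0.096 to 0.50 for PTGDS and -0.0080 to 1.29 for PTGIS with senescence, -0.085 to 1.02 for PTGIS with the hairpin, and in DMSO against senescent control -0.45 to 0.0057 for PTGES and -0.53 to 0.10 for PTGDS. Of the single genes, PTGS1, PTGS2, PTGER4 and PTGFR kept their calls in every alternative in the senescence, hairpin and TRi-1 comparisons, with log2 ranges of 8.80 to 9.11 for PTGS2 with senescence, 0.13 to 0.39 with the hairpin and -0.84 to -0.65 with TRi-1, and -1.62 to -1.58 for PTGS1 with TRi-1. PTGS2 in DMSO against senescent control was called in the compared groups alone (0.19) and with the GC correction (0.09). The replicate numbers did not pair the samples (correlations of deviations between same-numbered libraries of -0.43 to 0.45 in the compared groups); with the replicate block, the prostaglandin genes called lower with the hairpin were 4 and with TRi-1 5, and PTGER2 with the hairpin, PTGER2 in the difference and PTGES with TRi-1 lost their calls.

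The count of prostaglandin genes called lower with the hairpin was 3 with upper-quartile scaling, 3 without the filter and 3 with the compared groups alone, and 3 to 5 without single libraries. The count lower in the difference was 1 at a mean CPM of at least 5, where PTGDS was not tested, and 1 to 3 without single libraries. With the compared groups alone 1 prostaglandin gene was higher with TRi-1 and 2 with DMSO against senescent control; with DMSO the count was also 2 under the GC correction. All genes higher with TRi-1 numbered 812 without the filter, 2344 with the compared groups alone, 1967 without the 3 low-GC libraries, 2636 with the GC correction and 772 to 845 without single libraries; those lower numbered 3037 with the compared groups alone. All genes higher with DMSO numbered 2229 with the compared groups alone and 2727 with the GC correction, and those lower 2028 without the 3 low-GC libraries and 2564 with the GC correction. The cause was not tested. Low counts limit PTGES, PTGDS and PTGIS. In the gene lists, 37 of 408 counts moved by over 1.5 times, among them other receptors with senescence (0 called at a mean CPM of at least 5) and arachidonic acid release with TRi-1 (0 to 4).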
